A study of Homo sapiens with 47 samples.

Results

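The total RNA of wild-type HEK293T cells was described from 3 libraries that had been depleted of ribosomal RNA before sequencing. They were chosen by their label, as the libraries of unmutated cells among the 6 in the study's ribo-depleted RNA count table, and they are 3 of the 47 samples of the study, with all 58395 genes of that table kept. The study set such cells against a line mutated in EAF1, whose protein partners the ELL elongation factors, and that line was not used here. The wild-type cells carried no engineered mutation, the labels name no treatment, and they were grown in DMEM with fetal bovine serum, penicillin and streptomycin. HEK293T is a line of human embryonic kidney cells transformed with adenovirus DNA and later given the large T antigen of SV40, so it is 1 cultured line and not a normal kidney cell type. Its viral genes were not analysed here. The methods of the study speak of biological replicates, 3 or more per experiment, and the labels do not say how the 3 libraries were grown.

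Ribosomal RNA makes up most of the RNA of a cell, and removing it leaves both the mRNAs with a poly(A) tail and the RNAs without one. Among the latter are the mRNAs of replication-dependent histones and a set of abundant structured RNAs. Of these, 7SL RNA is the scaffold of the signal recognition particle, which brings secretory proteins to the endoplasmic reticulum, 7SK RNA holds the transcription elongation factor P-TEFb in an inactive complex, and the RNAs of RNase P and RNase MRP are the catalytic cores of enzymes that process the precursors of tRNA and rRNA.

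The libraries held 59137210, 52541541 and 55637032 counts. Levels are given as counts per 1000000 of the library total (CPM) after edgeR's TMM scaling, whose factors of 0.995, 1.01 and 0.999 hardly moved the totals. A gene with 0 counts may have had up to 3 counts by chance, which is 0.0510, 0.0568 and 0.0540 CPM in libraries 1, 2 and 3, and these floors cover counting error only. Of the 58395 genes, 13587 had no count in any library and 35504 had a count in all 3. At 1 CPM or more in every library were 18258 genes, of which 13245 were protein-coding, 2793 were long noncoding RNA (lncRNA) genes and 1339 were pseudogenes. At 1000 CPM or more were 65 genes, 41 of them protein-coding.

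Protein-coding genes took 76.8%, 77.8% and 78.0% of the counts in libraries 1, 2 and 3, a mean of 77.6 ± 0.634% (SD, n = 3). The next class was misc_RNA, the annotation's name for a mixed class of small structured RNAs led by 7SL and its copies, with 8.24%, 7.72% and 7.60% (mean 7.85 ± 0.341%). LncRNA genes followed with 5.33 ± 0.0921%, pseudogenes with 2.29 ± 0.00953%, small nuclear RNA (snRNA) genes with 1.60 ± 0.0514% and small nucleolar RNA (snoRNA) genes with 0.967 ± 0.0796%. The 641 genes with no entry in the annotation used here held 2.96 ± 0.218%, and 71.3% of that was ENSG00000283029, whose counts equalled those of RN7SL1 in every library. Thus the coding share varied little between the libraries, and library 1 had the highest share of misc_RNA and of snRNA.

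**Figure D1:**
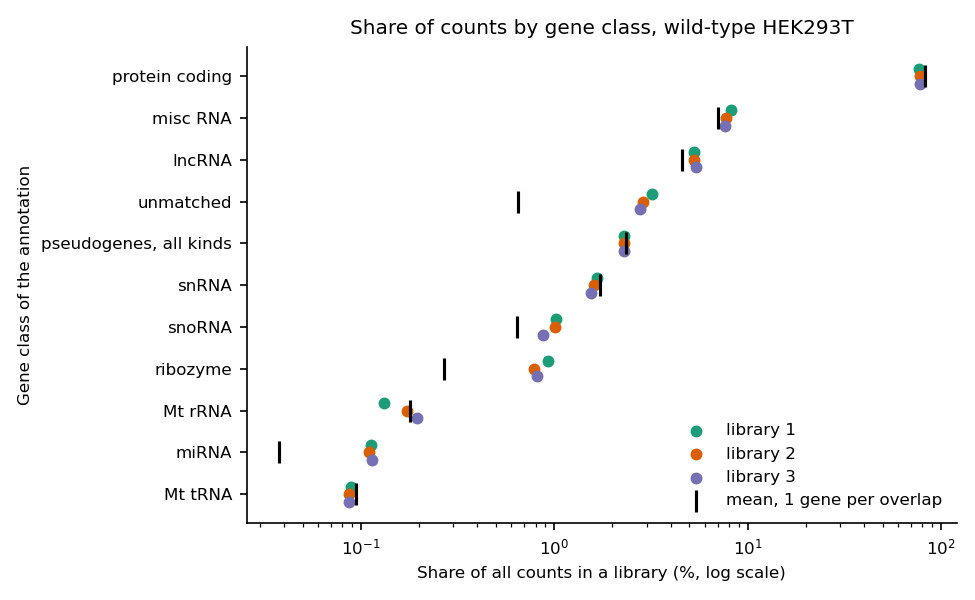
Share of all counts (log scale) by gene class in each of the 3 wild-type libraries (points), with the mean after keeping 1 gene where genes overlap (black marks). Protein-coding genes hold 77.6% on average, and of the classes drawn, unmatched, ribozyme, miRNA and snoRNA genes lose the largest parts of their own share when overlaps are removed.

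These shares count reads, and a long RNA gives more reads than a short one. Divided by each gene's merged exon length, the misc_RNA class held 38.3% and protein-coding genes 27.8%, and divided by the length of the canonical transcript they held 30.7% and 40.3%. Both length scales lower the coding share and raise that of misc_RNA, but they differ in which class is larger. The class names also hide doubled counts. RN7SK, filed under snRNA, and 7SK, filed under misc_RNA, are overlapping entries for 1 locus and had the same counts in all 3 libraries, and RN7SK alone was 83.2% of the snRNA class. With 1 gene kept wherever genes overlapped by at least 50% of their exon length or had the same counts, a choice made after seeing the data, 3279 genes holding 7.41 ± 0.308% of counts were left out. Where genes overlapped, the one with the higher CPM was kept, whatever its class. The protein-coding share was then 82.3 ± 0.416%, misc_RNA 6.99 ± 0.360% and lncRNA 4.56 ± 0.0798%. RPPH1, the RNA of RNase P, was left out in favour of ENSG00000259001, a lncRNA entry around it with nearly the same count. The ribozyme class therefore fell from 0.841% to 0.270%, and the lncRNA share still holds the counts of that locus.

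Many genes inside a larger gene had hardly more counts than the gene around them, or fewer, so levels of overlapping and antisense genes are uncertain. In 53 of 53 pairs in which a gene above 20 CPM lay wholly inside exons of a gene on the opposite strand, the outer gene had at least 98% of the inner gene's count, and the same held for 30 of 37 pairs on the same strand. TUBA1B-AS1, a lncRNA gene antisense to the tubulin gene TUBA1B, had 1566 ± 33.3 CPM, against 1849 ± 45.9 CPM for TUBA1B itself. How the authors' counting treated strand and reads with several matches is not given in the sources used here. Exons were taken from GENCODE v44, which may differ from the gene models the authors counted on, so overlap is approximate. ENSG00000282885, for example, whose exons in GENCODE v44 contain RN7SL2, had 60, 60 and 52 counts.

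The RNA with the most counts was 7SL RNA, from 3 genes on chromosome 14. RN7SL2 had 24434, 21539 and 22897 CPM, RN7SL1 had 23171, 20411 and 19666 CPM, and RN7SL3 had 11056, 12499 and 11714 CPM in libraries 1, 2 and 3. Together they held 5.58 ± 0.227% of all counts, and the 680 genes with an RN7SL symbol, nearly all of them copies, held 6.33 ± 0.307%. They are closely related copies, so how the counts divide between them is uncertain. The library with the highest value differed between these genes: library 1 for RN7SL1 and RN7SL2, and library 2 for RN7SL3.

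RN7SK followed with 13739, 13062 and 13159 CPM (mean 13320 ± 366 CPM), a coefficient of variation (CV, the SD as a percent of the mean) of 2.75%. RPPH1, the RNA of RNase P, had 5911 ± 507 CPM, and ENSG00000259001, a lncRNA gene around it, had 5912 ± 507 CPM, so nearly the same count stood on both. RMRP, the RNA of RNase MRP, had 2939, 2389 and 2173 CPM and a CV of 15.8%, with library 1 the highest. SNORD3A and SNORD3C, 2 genes of the U3 snoRNA that guides the first cleavages of pre-rRNA, had 2120.0 ± 185 and 1527 ± 121 CPM, and ENSG00000262202, a lncRNA gene on the same chromosome, had 1432 ± 137 CPM. RN7SL5P and RN7SL4P, copies of 7SL on chromosomes 9 and 3, had 5382 ± 756 and 2016 ± 266 CPM. These 15 noncoding genes were thus mainly 7SL and its copies, 7SK, the RNAs of both enzymes and U3 RNA. Noncoding counts were concentrated in few genes: 8 noncoding genes held 50% of noncoding counts and the top 10 held 54.6 ± 0.741%. Both figures include RN7SK beside 7SK and RPPH1 beside ENSG00000259001, so the same counts enter them doubly. They were not recomputed with 1 gene per overlap. Of the protein-coding genes, 1320 held 50% of coding counts and the top 10 held 3.26 ± 0.0260%.

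**Figure D2:**
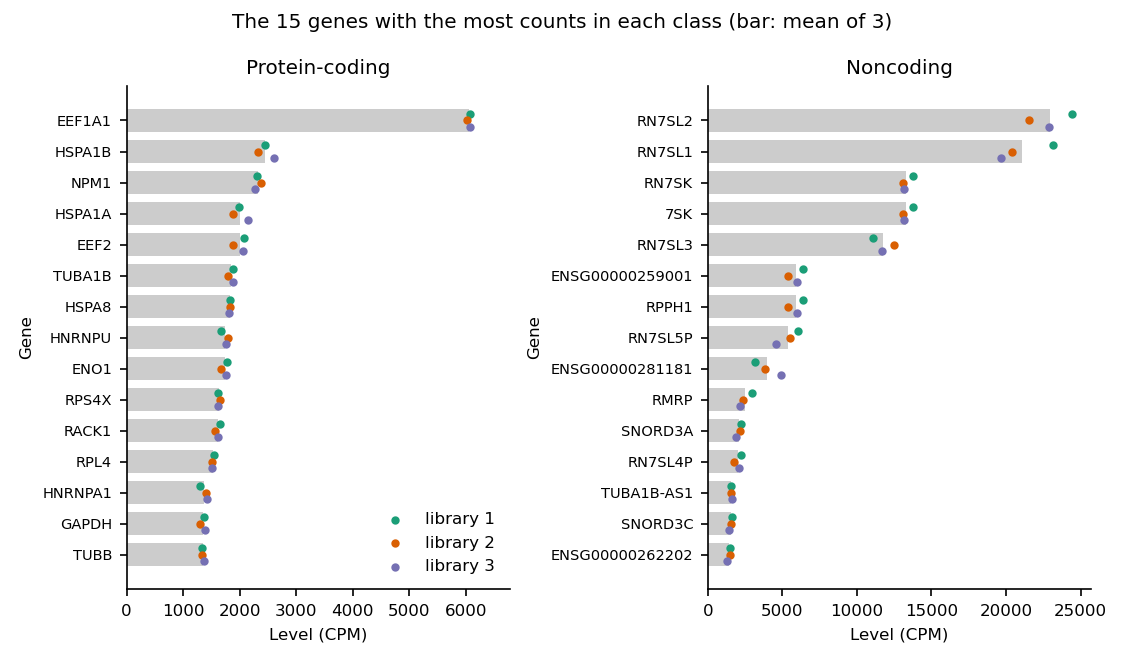
The 15 protein-coding (left) and the 15 noncoding (right) genes with the most counts outside the mitochondrial genome, in CPM, with bars for the mean of 3 libraries and a point per library. EEF1A1 leads the coding genes at 6058 CPM and RN7SL2 the noncoding ones at 22957 CPM; lengths differ, so bars of different genes compare counts and not molecules.

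Some counts lay on entries within rRNA genes. ENSG00000281181, a lncRNA entry of 923 bases on chromosome 21 inside the 18S rRNA gene RNA18SN1 of RefSeq, had 3169, 3861 and 4895 CPM. It and ENSG00000280614, ENSG00000280800 and ENSG00000281383, which lie inside other 18S genes or copies, held 0.349%, 0.445% and 0.550% of the counts in libraries 1, 2 and 3. All 4 entries are annotated on the minus strand, whereas RNA5-8SN2 and RNA5-8SN3, the 5.8S genes near ENSG00000280800 and ENSG00000280614, are on the plus strand, so whether these counts are reads of rRNA was not tested. Library 1 was the lowest for these 4 entries and for mitochondrial rRNA (0.132%, 0.174% and 0.195%), and also for the 5.8S genes as a group (0.00671%, 0.0127% and 0.0127%). The 5S genes and their copies together were level at 0.00281%, 0.00271% and 0.00280%. The class of rRNA pseudogenes, led by the 5S copy RNA5SP216, held 0.00274% on average. The 5S values therefore say little of the 5S genes themselves.

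The list of RNA polymerase III and enzyme RNAs, which includes 7SL, 7SK, RPPH1 and RMRP, had 12 genes in the table, and 7 of them were at 1 CPM or more in every library, against 31.3% of all genes, 4.03% of misc_RNA genes and 2.37% of snRNA genes. Vault and Y RNAs, components of ribonucleoprotein particles, were low: VTRNA1-3 had 2.09 ± 0.447 CPM, RNY1 1.10 ± 0.141 CPM, RNY3 0.0902 ± 0.0213 CPM and RNY4 0.0117 ± 0.0101 CPM, which is under the floor of a single library. TERC, the template RNA of telomerase, had 82.4 ± 6.65 CPM, with 81.0% of its exon length shared with another gene. Per kilobase of merged exon, RN7SL2 had 76523 CPM and RNY1 9.71 CPM. The levels of such short RNAs in these libraries were not compared with their abundance in the cell.

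Counts on small RNA genes inside introns followed the gene around them, except for snoRNA genes on the strand of that gene. Of the snRNA and misc_RNA genes within an intron of a gene on the same strand, 41.5% had a count where the host was under 1 CPM, 79.0% from 1 to 10 CPM, 94.4% from 10 to 50 CPM and 96.3% from 50 CPM. On the opposite strand these shares were 38.5%, 79.7%, 91.6% and 97.7%, and of the 1461 such genes in no other gene 45.0% had a count. For snoRNA genes on the same strand the shares were 26.6%, 90.3%, 51.5% and 97.3%, with no steady rise, and on the opposite strand 17.4%, 59.1%, 85.4% and 100%. The source of the reads on these snRNA and misc_RNA genes was not tested. For microRNA genes on the same strand the shares were 15.1%, 77.5%, 92.0% and 98.1%. All 1877 microRNA genes together held 0.112 ± 0.00151% of counts and 0.0377 ± 0.00120% with 1 gene per overlap. The one with the most counts was MIR1244-1, at 226.9 ± 6.52 CPM, which lies within exons of PTMA, the gene of the chromatin protein prothymosin alpha, which had 1091 ± 18.6 CPM. Its hairpin (RefSeq, GRCh38.p14, chr2:231713314-231713398, plus strand; named after its value was seen) is shared by 4 loci and found whole in 4 of 12 PTMA transcripts, and the capitals mark the seed, bases 2 to 8 of the mature microRNA.
MIR1244-1: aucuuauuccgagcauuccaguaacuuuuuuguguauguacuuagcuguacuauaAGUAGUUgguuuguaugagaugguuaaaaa
Its counts therefore cannot be told apart from those of PTMA mRNA.

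Among protein-coding genes outside the mitochondrial genome, EEF1A1, the factor that brings aminoacyl-tRNA to the ribosome, had the most counts, with 6077, 6023 and 6074 CPM (6058 ± 29.9 CPM). HSPA1B and HSPA1A, the stress-inducible HSP70 chaperones, came next with NPM1, at 2444, 2320 and 2600 CPM for HSPA1B and 1994, 1877 and 2154 CPM for HSPA1A. The canonical transcripts of both are 91.7% identical, so how counts divide between them is uncertain. NPM1, the nucleolar chaperone nucleophosmin, had 2320 ± 49.1 CPM, and EEF2, the factor that moves the ribosome along the mRNA, had 2005 ± 105 CPM. The rest of the 15 were the tubulins TUBA1B and TUBB (1351 ± 20.6 CPM), the constitutive chaperone HSPA8 (1824 ± 9.52 CPM), the RNA-binding proteins HNRNPU (1738 ± 68.6 CPM) and HNRNPA1 (1374 ± 67.9 CPM), the glycolytic enzymes ENO1 (1734 ± 54.3 CPM) and GAPDH (1355 ± 42.0 CPM), and RPS4X (1633 ± 24.9 CPM), RACK1 (1614 ± 40.5 CPM) and RPL4 (1526 ± 23.4 CPM) of the ribosome.

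The order changed once lengths were taken into account. Per kilobase of merged exon, 6 of the 10 highest coding genes outside the mitochondrial genome were replication-dependent histone genes, whose proteins package newly made DNA and whose mRNAs have no poly(A) tail. H3C14 had 1392, H3C15 1064, H1-2 1063, H2BC12 955.4, H1-4 931.4 and H4C3 671.2 CPM per kilobase, beside HSPA1B at 975.3, HSPA1A at 835.5, RPS12 of the small ribosomal subunit at 703.9 and RPL36A-HNRNPH2, a read-through entry lying wholly in exons of other genes, at 717.1. Both H3C14 and H3C15 encode histone H3, and how counts divide between such related histone genes was not tested. Merged exons count every rare exon of a gene (10063 bases for EEF1A1 against 3512 in its canonical transcript). Per kilobase of canonical transcript, a scale added after seeing the data, the highest nuclear genes included RPS29 at 4339, RPL39 at 2130.5, H4C15 at 1905, NPM1 at 1758, EEF1A1 at 1725 and RPS18 at 1707, followed by H4C14, RACK1 and RPS2. The first rank of RPS29 rests on this scale, with 295 bases of canonical transcript against 9840 of merged exon, and 130.1 CPM per kilobase of the latter. RPS29 had 1480, 1315 and 1045 CPM in libraries 1, 2 and 3 (CV 17.2%), and RN7SL1 lies within its span. Whether reads of RN7SL1 add to its count was not tested. Ribosomal and histone mRNAs led the nuclear genes per kilobase of canonical transcript, and HSPA1B fell out of their first 10.

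The 37 mitochondrial genes held 1.07%, 1.20% and 1.20% of counts, with library 1 the lowest. Of the 13 that encode proteins of oxidative phosphorylation, MT-CO1 and MT-CO3, subunits of cytochrome c oxidase, led with 3079 ± 71.0 and 1926 ± 63.5 CPM, and MT-ND6 had the fewest at 74.1 ± 0.982 CPM. Per kilobase MT-CO3 was the higher of the pair, at 2457 against 1997 CPM. MT-RNR2 and MT-RNR1, the mitochondrial rRNAs, had 1297 ± 229 and 372.3 ± 89.9 CPM, and the 22 tRNA genes together held 0.0872 ± 0.00132% of counts.

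Chromosome 14 held 9.80%, 9.32% and 9.33% of counts (9.48 ± 0.273%, SD, n = 3) with 3.44% of exon length, 2.76 times its share. Without RN7SL1, RN7SL2, RN7SL3, RPPH1 and ENSG00000259001 it held 2.72 ± 0.0397%, and counting protein-coding genes only it held 3.25 ± 0.0386%. Chromosome 6 held 8.53 ± 0.0711% with 5.03% of exon length, and 5.87 ± 0.0606% without RN7SK and 7SK. Its protein-coding share was still 7.24 ± 0.0691%, led by EEF1A1 (chr6:73489308-73525587), and this chromosome also carries HSPA1A, HSPA1B, TUBB and the main histone gene cluster. Chromosome 1 held 10.4 ± 0.0736%, with HNRNPU at its head. A few RNA genes therefore set the share of chromosome 14, whereas chromosome 6 was above its exon share in coding genes too.

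**Figure D3:**
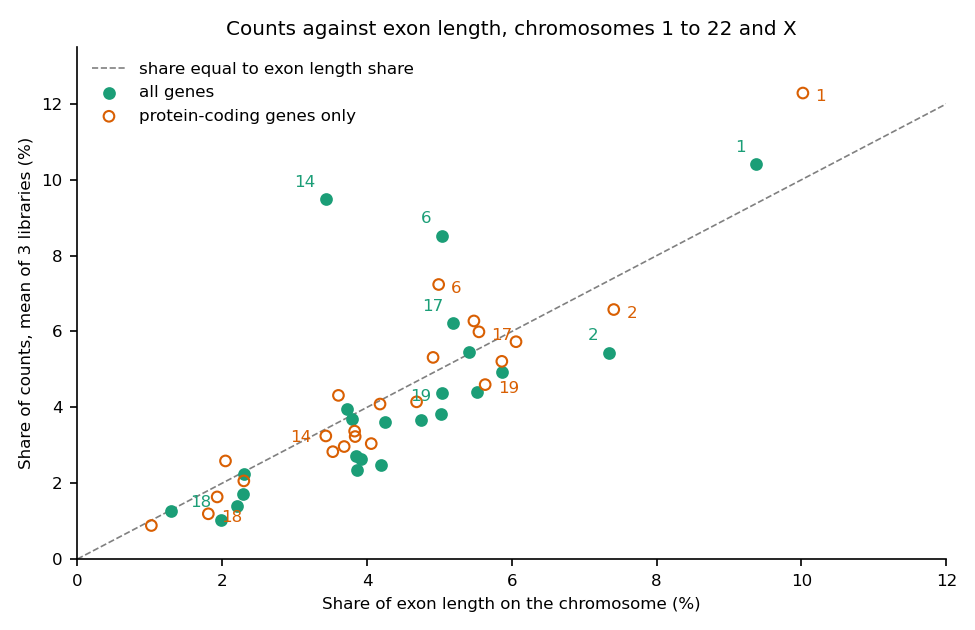
Mean share of counts of 3 libraries against the share of exon length for chromosomes 1 to 22 and X, for all genes (filled) and for protein-coding genes only (open); on the dashed line both shares are equal. Chromosome 14 lies far above the line with 9.48% of counts and near it with 3.25% of coding counts.

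Over chromosomes 1 to 22 and X, the share of counts divided by that of exon length ran from 0.518 on chromosome 18 to 2.76 on chromosome 14, with a median of 0.840. In coding genes chromosome 18 was again low, at 0.660, with RPL17 of the large ribosomal subunit as its most abundant gene at 441.4 ± 2.72 CPM. The median level of coding genes at 1 CPM or more was 28.2 CPM over the genome. It was lowest on chromosome 19, at 15.2 CPM over 947 genes, although EEF2 lies there, and highest on chromosome 21, at 37.7 CPM over 115 genes. Most chromosomes were led by a coding gene. Among these were HSPD1, the mitochondrial chaperonin, on chromosome 2 (1313 ± 35.6 CPM), RPS3A on 4 (1028 ± 2.54 CPM), NPM1 on 5, HNRNPA2B1 on 7 (1197 ± 94.9 CPM), RPS24 on 10 (718.9 ± 13.96 CPM), HSPA8 on 11, TUBA1B on 12, RPL4 on 15, RPS2 on 16 and RPS4X on X. Further coding leaders were PRKDC, the DNA repair kinase, on chromosome 8 (1020 ± 40.2 CPM), TPT1, the translationally controlled tumor protein, on 13 (603.6 ± 8.66 CPM), CSE1L, an exporter of importin alpha, on 20 (508.1 ± 6.04 CPM), and DDX17, an RNA helicase, on 22 (1113 ± 12.3 CPM). Noncoding genes led on chromosomes 3, 6, 9, 14, 17 and 21, where RN7SL4P, RN7SK, RN7SL5P, RN7SL2, SNORD3A and ENSG00000281181 stood first.

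Marker lists describe the identity of the cells. In bulk RNA, fewer cells of a type and less RNA per cell cannot be told apart. A gene is said here to reach 1 CPM if it did so in every library, as 67.0% of all protein-coding genes did. Of 12 genes of the early kidney, 8 did, and the list summed to 105.1, 107.9 and 109.3 CPM in libraries 1, 2 and 3. Among them were SALL1 at 22.4 ± 0.575 CPM and SIX2, a marker of nephron progenitors, at 13.9 ± 1.40 CPM. GATA3, EYA1, LHX1 and WT1 lay between 5.43 and 6.71 CPM. PAX2 and PAX8, which define the nephric lineage, had 0.652 ± 0.171 and 0.0732 ± 0.0398 CPM, the latter near the floor. Of the markers of the kidney label, SIX2 and SALL1 were thus clearly counted, whereas PAX2 and PAX8 were under 1 CPM.

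Of 14 genes of the mature nephron, 4 reached 1 CPM, and the list summed to 100.2, 98.3 and 104.9 CPM. LRP2, the endocytic receptor megalin of the proximal tubule, led with 56.2 ± 0.785 CPM, and PODXL, a sialomucin of podocytes that other cells make too, had 24.5 ± 0.682 CPM. SLC5A2, the glucose transporter, had 17.96 ± 1.75 CPM, but 40.7% of its exon length is shared with another gene, so its level is uncertain. UMOD, the protein of the thick ascending limb, had 0 counts in all 3 libraries, and NPHS1, SLC34A1, AQP2 and SLC12A3 were at 0.0586 CPM or less. CUBN, the partner receptor of LRP2, had 1.36 ± 0.368 CPM, and apart from these and SLC5A2 every transport gene of the list was under 1 CPM.

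Of 16 neuronal genes, 8 reached 1 CPM, and the list summed to 251.6, 256.9 and 260.5 CPM. UCHL1, a neuronal ubiquitin hydrolase, led with 113.9, 110.3 and 111.3 CPM, followed by the neurofilaments NEFM (59.9 ± 5.13 CPM) and NEFL (51.3 ± 1.81 CPM). INA, TUBB3, SYP and ENO2 lay between 6.23 and 7.51 CPM. DCX, STMN2, SNAP25 and ELAVL4, which mark young or mature neurons, were at 0.0769 CPM or less. RBFOX3, which encodes the nuclear protein of mature neurons NeuN, had 3.36 ± 0.345 CPM, SYN1, of synaptic vesicles, 1.123 ± 0.137 CPM, and the heavy neurofilament NEFH 0.607 ± 0.0991 CPM. The list was thus mixed, with NEFL, NEFM and UCHL1 above 10 CPM and the other 13 genes below it. Of 13 genes of the adrenal gland, 0 reached 1 CPM: CHGA, a granule protein, was highest at 0.782 ± 0.165 CPM, the list summed to 2.36, 1.76 and 2.03 CPM, and TH, the enzyme of catecholamine synthesis, had 0 counts.

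**Figure D4:**
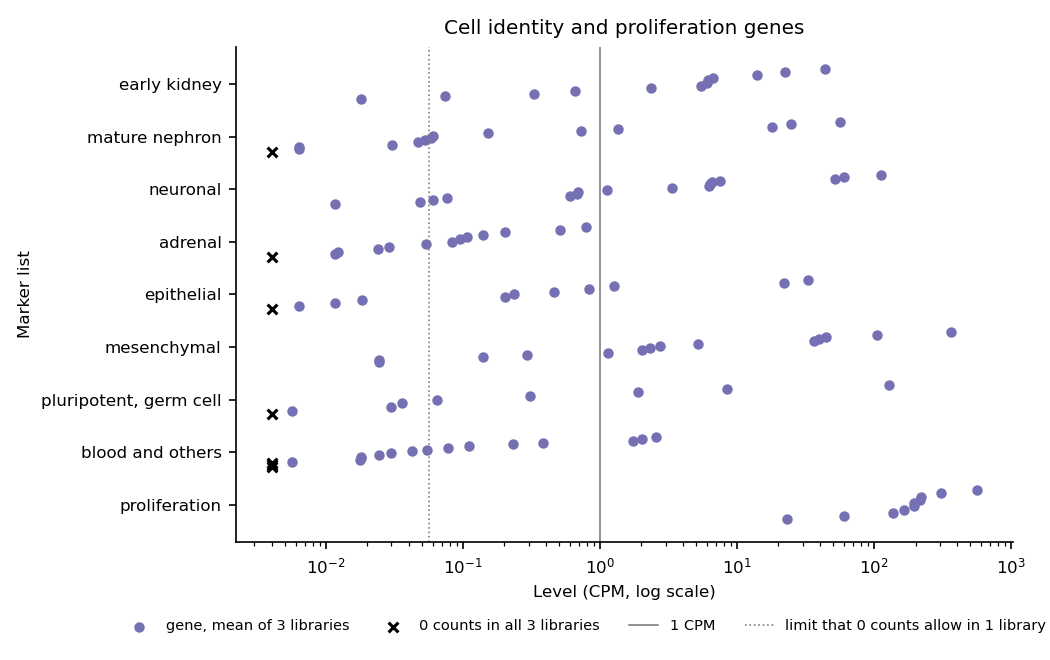
Mean CPM (log scale) of the genes of 8 identity lists and the proliferation list, 1 point per gene, with crosses for genes at 0 counts in 3 libraries, a solid line at 1 CPM and a dotted line at the highest floor of a library. All 10 proliferation genes and 0 of 13 adrenal genes lie above 1 CPM.

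Mesenchymal genes had more counts than epithelial ones. Of 14 mesenchymal genes 10 reached 1 CPM, and the list summed to 602.4, 597.3 and 612.9 CPM, led by VIM, the intermediate filament vimentin, at 365.3 ± 9.37 CPM. CDH2, or N-cadherin, had 105.1 ± 0.469 CPM, FN1, or fibronectin, 44.3 ± 1.78 CPM, SPARC 39.5 ± 1.84 CPM, and ZEB1, which represses epithelial genes, 36.1 ± 1.00 CPM. The collagen genes COL1A1 and COL3A1 had 2.74 ± 0.565 and 2.01 ± 0.224 CPM. The collagen gene COL1A2 and DCN, of a matrix proteoglycan, were at 0.0243 CPM each. Of 11 epithelial genes 3 reached 1 CPM, and the list summed to 58.6, 55.3 and 60.0 CPM, with the keratins KRT18 (33.0 ± 0.818 CPM) and KRT8 (21.95 ± 1.45 CPM) first. CDH1, or E-cadherin, had 1.26 ± 0.0999 CPM, EPCAM 0.233 ± 0.0157 CPM, and KRT5 0 counts in all 3. Per kilobase of merged exon, CDH2 had 12.2 and CDH1 0.207 CPM.

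Of 9 genes of pluripotent and germ cells 3 reached 1 CPM, and LIN28B, which blocks the maturation of let-7 microRNAs, was highest at 127.1 ± 4.38 CPM. SOX2 had 8.42 ± 0.220 CPM and POU5F1 1.87 ± 0.220 CPM, while NANOG had 0.0296 ± 0.00931 CPM and DAZL 0 counts, so the defining set was not complete. The list summed to 136.3, 142.6 and 134.7 CPM, nearly all of it LIN28B. Of 18 genes of blood, endothelium, liver, muscle, glia and pancreas, 3 reached 1 CPM, and the list summed to 7.68, 7.04 and 7.34 CPM. Among these were GFAP (2.57 ± 0.128 CPM) and MBP (2.03 ± 0.303 CPM), whereas HBB, MYH7 and INS had 0 counts and PTPRC, the pan-leukocyte marker, had 0.0180 ± 0.000974 CPM.

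The cells carried the RNA of division. All 10 proliferation genes exceeded 10 CPM in every library, as 49.9% of all protein-coding genes did, and summed to 2035, 2105 and 2096 CPM, led by TOP2A, the topoisomerase of chromosome segregation, at 564 ± 17.1 CPM and MCM2 of the replicative helicase at 305.5 ± 14.5 CPM. MKI67 had 195.9, 225.8 and 237.4 CPM, with library 1 the lowest. The T antigen of this line binds the RB protein, and of 7 genes of cell cycle checkpoints 6 reached 1 CPM. MDM2, a ubiquitin ligase, had 189.2 ± 7.05 CPM, RB1 63.5 ± 2.05 CPM and CDKN2A, the INK4A and ARF locus, 48.8 ± 2.42 CPM. CDKN1A, an inhibitor of the kinases of the cell cycle, had 10.0 ± 0.822 CPM, and GDF15, a stress-induced cytokine, 0.0775 ± 0.0362 CPM.

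Lists of general cell functions were complete at 1 CPM. All 12 glycolytic genes summed to 7471, 7316 and 7634 CPM, and LDHB (843.4 ± 7.51 CPM) had more counts than LDHA (537.4 ± 47.7 CPM), also per kilobase of merged exon (282.7 against 89.2 CPM). All 12 chaperone genes summed to 12227, 12609 and 13019 CPM, with HSP90AA1 at 1066, 1431 and 1377 CPM and HSP90AB1 at 1249.9, 1377 and 1384 CPM. HSPA5, the chaperone of the endoplasmic reticulum, had 120.8, 159.9 and 164.6 CPM, so library 1 was the lowest for all 3. The list was mixed in this, since HSP90B1 (727.1, 710.9 and 689.5 CPM) and HSPA8 were highest in library 1. HSPA1A and HSPA1B were lowest in library 2. All 11 translation factors were at 10 CPM or more, the level that 49.9% of protein-coding genes reached, among them EEF1A2 (31.2 ± 1.90 CPM), the paralog of EEF1A1 known from neurons and muscle. The 11 cytoskeleton genes were as well, with ACTG1 (1025 ± 70.3 CPM) and ACTB (930.3 ± 38.1 CPM) beside the tubulins. Of 19 nuclear and regulatory lncRNAs, 18 reached 1 CPM, against 19.4% of all lncRNA genes. MALAT1, a lncRNA of nuclear speckles, had 794.3, 1097 and 1056 CPM, again lowest in library 1. GAS5, a host of snoRNAs, had 294.8 ± 17.4 CPM, NORAD, which binds PUMILIO proteins, 283.8 ± 3.25 CPM, and NEAT1, the scaffold of paraspeckles, 119.3 ± 7.91 CPM. The imprinted lncRNA MEG3 was at 0.0293 ± 0.0273 CPM.

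The spread between libraries fell with level up to 1000 CPM. The median CV was 86.7% for genes of 0.01 to 0.1 CPM, 23.4% for 0.1 to 1 CPM, 8.60% for 1 to 10 CPM, 3.83% for 10 to 100 CPM and 2.77% for 100 to 1000 CPM. Counting error alone gives 77.5%, 24.7%, 7.83%, 2.39% and 1.07% at these levels. At 1000 CPM or more the median CV was 4.07% over 69 genes, against 0.356% from counting. In this top class the 45 coding genes had a median of 2.79% and the 22 noncoding ones 8.58%. Over the 11218 genes with a mean of 10 CPM or more the median CV was 3.61%, 453 genes exceeded 10% and 20 exceeded 20%. By edgeR, the biological coefficient of variation, the spread beyond counting error, was 4.79% over 25410 genes. Its trend over level had a median of 10.8% under 1 CPM, 7.71% from 1 to 10 CPM, 4.37% from 10 to 100 CPM, 4.24% from 100 to 1000 CPM and 4.48% above, so it was larger in genes of low level.

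**Figure D5:**
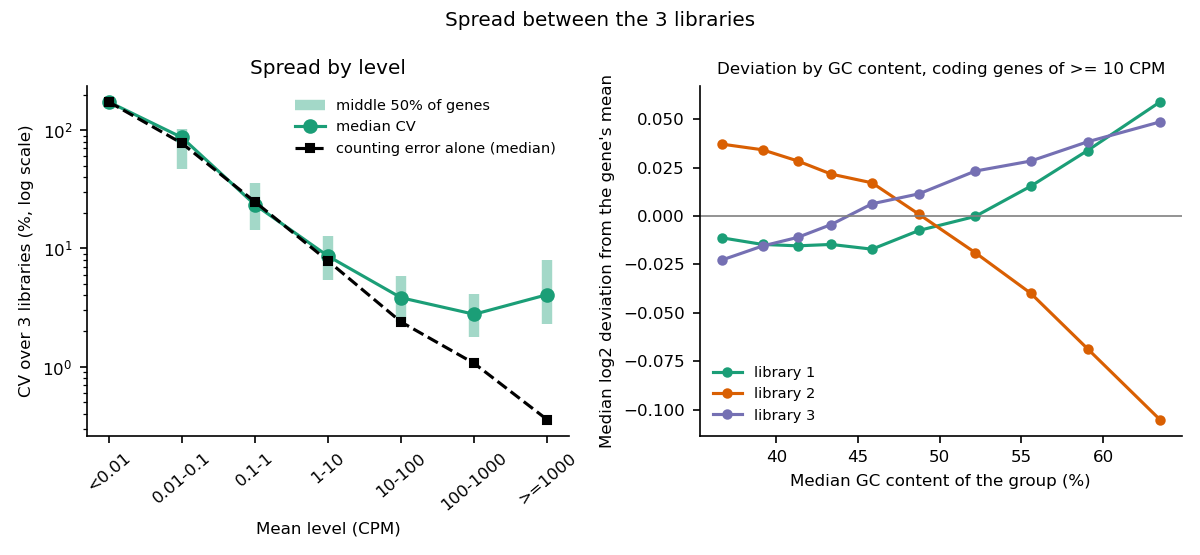
Left, median CV of 3 libraries by mean level (log scale), with the middle 50% of genes as bars and the median counting error dashed. Right, the median log2 deviation of each library from the gene's mean for coding genes of at least 10 CPM in 10 groups of GC content; library 2 falls from 0.04 to -0.11.

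The genes that varied most at 10 CPM or more were histone H2B genes, entries of rRNA genes and the mRNAs of RPS16 and HNRNPH3. H2BC9, a replication-dependent histone gene, had 8.61, 7.80 and 18.9 CPM (CV 52.5%), and H2BC7 43.7, 38.1 and 65.9 CPM (CV 29.9%), both highest in library 3. RPS16, a protein of the small ribosomal subunit, had 92.8, 179.4 and 193.1 CPM (CV 35.1%), and HNRNPH3, a splicing regulator, had 59.4, 100.6 and 98.2 CPM (CV 26.9%), both lowest in library 1. RNA5-8SN2 and RNA5-8SN3, copies of the 5.8S rRNA gene, had CVs of 39.9% and 32.9%. ENSG00000281383, inside an 18S copy, and ENSG00000280614, inside an 18S gene, had CVs of 33.8% and 31.9%. The unmatched genes ENSG00000276700 and ENSG00000275757 had 34.0% and 33.2%. At 100 CPM or more, RPS16 and ENSG00000280614 were followed by ENSG00000280800 (24.6%), MT-RNR1 (24.1%) and ENSG00000281181 (21.8%). Of the 20 genes with a CV over 20%, library 1 was the lowest in 15.

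The steadiest genes at 100 CPM or more were MCM3AP, a factor of mRNA export, at 150.3, 150.6 and 150.6 CPM (CV 0.118%), OAT, a mitochondrial enzyme of ornithine metabolism (CV 0.135%), APLP2, a relative of the amyloid precursor (CV 0.144%), RPL5 of the large ribosomal subunit (CV 0.147%) and CCT3 of the chaperonin TRiC (CV 0.151%). Counting error alone gives MCM3AP 1.09%, so these 5, the smallest of 1895 genes, varied less than counting error gives on average. Library pairs differed beyond counting error, so no pair was a plain copy. The chi-square per degree of freedom was 7.24 for libraries 1 and 2, 7.27 for 1 and 3 and 4.55 for 2 and 3. These values do not tell separate cultures from separate preparations of 1 RNA.

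Deviations followed base composition. In the 10% of coding genes with the lowest GC content (median 36.7%), library 2 lay 0.04 above the gene's mean on the log2 scale, and libraries 1 and 3 had values of -0.01 and -0.02. In the group with the highest GC content (63.5%) library 2 had -0.11, library 1 had 0.06 and library 3 had 0.05. Genes of chromosome 19, which is rich in zinc finger genes, were also lowest in library 2, as those of high GC content were, with medians of 0.02, -0.07 and 0.04 for libraries 1, 2 and 3. The 13 mitochondrial coding genes were at -0.11 in library 1 against 0.05 in both others, and the 26 snoRNA genes of at least 10 CPM were at 0.08, 0.04 and -0.11, lowest in library 3. The part of GC content in the spread of single genes was not tested.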

How the data were processed

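RNA of 3 wild-type HEK293T libraries was analysed. Per the paper's methods, the authors depleted rRNA with Ribo-Zero, made TruSeq stranded total RNA libraries, sequenced read pairs, aligned them to GRCh38 and counted them on Ensembl genes; they deposited raw counts per gene. For trimming the paper names Trim Galore, whereas the submitters' processing notes name Trimmomatic 0.38, and which was used is not known here. Both name HISAT2 2.3.4.1, and the paper names Rsubread for the counts. How strand and multi-mapped reads were handled is stated in neither. TMM factors and dispersions came from edgeR 4.0.16, and size factors, an alternative, from DESeq2 1.42.0, in R 4.3.3; tables came from Python 3.11.15 with pandas 2.3.3 and numpy 2.4.6, and overlaps from bedtools 2.31.1. Symbols, biotypes, positions and sequences came from GENCODE v44 for 57754 of 58395 genes, and microRNA hairpins from RefSeq. Spread calculations were tested on simulated data. No low-count filter was applied to shares.

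Named were the 15 coding and 15 noncoding nuclear genes with the most counts, the 10 highest coding genes per kilobase, the leading gene of each chromosome, mitochondrial genes, the genes of 16 lists, the 10 largest CVs at 10 CPM or more, and the 5 largest and 5 smallest at 100 CPM or more; others are said to be chosen later. The libraries and lists were chosen with earlier results of these data known. Alternatives were other thresholds, length scales, scalings, gene subsets and leaving out each library. The mutant libraries were left out, and genes of X inactivation and of chromosome Y are not described singly. FTX and JPX, of the X inactivation centre, are among the 19 lncRNAs counted above. Some members of the lists and rankings are not reported here.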

Additional observations from a re-analysis of the deposited data

How the results depend on the processing

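Of 56 values recomputed for 14 results under alternatives other than leaving out a library, 22 stayed within 1 SD between libraries (for the median CV, the SD of its values with each library left out), or for numbers of genes within 1.5 times, and 34 moved. No paired analysis was possible because the results come from no test. Where the alternative changes the genes or the length counted, its construction moves the value; other causes were not tested. The alternatives of canonical length and 1 gene per overlap were chosen after seeing the data.

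Without unmatched genes in the total, protein-coding genes held 79.9% and lncRNA genes 5.49%, against 77.6% and 5.33%. Per kilobase of merged exon the shares were 27.8% for protein-coding, 38.3% for misc_RNA, 7.25% for lncRNA, 8.48% for snRNA and 4.83% for snoRNA genes, 12 genes held 50% of the total in place of 980.0, and the top 10 held 48.3% in place of 12.7%. Per kilobase of canonical transcript these shares were 40.3%, 30.7%, 7.24%, 6.80% and 3.87%. With 1 gene per overlap they were 82.3%, 6.99%, 4.56%, 1.72% and 0.643%, the top 10 held 10.4%, and chromosomes 1 and 6 held 11.0% and 7.54%, with 1.25% for the mitochondrial genome. In protein-coding genes only, chromosome 1 held 12.3%, chromosome 6 7.24%, chromosome 14 3.25% and chromosome 19 4.60%. Without mitochondrial genes in the total, chromosomes 1 and 6 held 10.5% and 8.63%. Genes detected numbered 27810.0 at 0.1 CPM, 11026 at 10 CPM and 35504 at 1 count, against 18258 at 1 CPM. The median CV was 5.00% from 1 CPM and 2.79% from 100 CPM, against 3.61% from 10 CPM; library totals, size factors, the SD of log2 CPM and coding genes only moved it by less than that SD.

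Leaving out each library gave 77.3% to 77.9% for protein-coding, 7.66% to 7.98% for misc_RNA, 5.28% to 5.36% for lncRNA, 1.58% to 1.63% for snRNA and 0.940% to 1.01% for snoRNA genes. Chromosomes 1, 6, 14 and 19 held 10.4% to 10.5%, 8.51% to 8.57%, 9.33% to 9.57% and 3.77% to 3.90%, and the mitochondrial genome 1.13% to 1.20%. From 18412 to 18445 genes were detected, 972 to 990.0 genes held 50% of counts, and the top 10 held 12.3% to 12.9%. The median CV was 2.50% to 3.42% and the biological coefficient of variation 4.35% to 5.54%; a CV of 2 libraries differs in construction from that of 3.

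The labels do not say how the libraries were grown, overlapping genes share counts, and classes rest on 1 annotation. With 3 libraries, the spread of a single gene is uncertain, and below 10 CPM counting error was a large part of it. Counts do not give molecules per cell.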
